A study of Mus musculus with 15 samples.

Results

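The C-type lectins and paired immunoglobulin-like receptors of myeloid cells described here are 10 genes: Clec4d, Clec4e, Clec7a, Clec4a2, Trem1, Trem3, Tarm1, Pirb, Pilra and Lilrb4a. They were matched by symbol, from a list drawn up with earlier results of these data known, out of 55416 Ensembl gene identifiers in the count tables, and all 10 were found and passed the filter on low counts in every comparison. The libraries hold whole-blood RNA of C57BL/6 mice, collected by cheek bleed. The labels give every mouse, untreated ones included, an orthotopic tongue tumor of 4MOSC1, a carcinogen-induced syngeneic mouse oral squamous cell carcinoma line, grown for 10 days. The 5 untreated mice had no surgery and no antibody. The 5 early mice and the 5 late mice received 2 doses of αCTLA-4 (an antibody that blocks the T-cell checkpoint receptor CTLA-4) and an early or a late neck dissection (ND), the surgical removal of the cervical lymph nodes. Whether the late ND mice had been operated on when they were bled is given differently in the study's text and in its figure legend, so "late" names the group only. No group was assigned αCTLA-4 without ND, and the untreated group differs from both others in antibody and in assigned surgery. By the order of days in the legend, the late mice would have been bled after αCTLA-4 but before their ND. The question the early and late groups address is how the timing of ND relative to the checkpoint inhibitor shows in the blood transcriptome.

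These receptors sit on neutrophils, monocytes, macrophages and dendritic cells and come in activating and inhibitory forms. Activating members carry no kinase of their own. They pair with the adapters FcRγ (Fcer1g) or DAP12 (Tyrobp), or, in the case of Dectin-1, use their own short tail, and signal through the kinase Syk and the scaffold Card9. Inhibitory members carry tyrosine motifs (ITIMs) in their tails, which Src family kinases phosphorylate and which recruit the phosphatases SHP-1 (Ptpn6) and SHP-2 (Ptpn11). Neighboring genes of opposite sign often bind similar ligands, hence "paired" receptors. Of the 10 genes, 6 encode activating receptors: Clec4d (MCL) and Clec4e (Mincle), which recognize mycobacterial glycolipids, Clec7a (Dectin-1), the receptor for fungal β-glucan, Trem1, an amplifier of neutrophil and monocyte inflammation, Trem3, a DAP12-coupled relative of Trem1, and Tarm1, an FcRγ-coupled receptor of neutrophils. The other 4 encode inhibitory receptors: Clec4a2 (DCIR), a C-type lectin with an ITIM, Pirb (PIR-B), which binds MHC class I, Pilra, which binds sialylated proteins, and Lilrb4a (gp49B).

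The genes lie in 5 places of the genome (GRCm39, GENCODE vM39). On chromosome 6 are Clec4a2 (123083387 to 123120958, plus strand), Clec4d (123239070 to 123252230, plus strand), Clec4e (123258748 to 123266829, minus strand) and Clec7a (129438554 to 129449742, minus strand). Clec4d and Clec4e are 6517 bases apart. On chromosome 17, Trem1 (48539784 to 48553952, plus strand) ends 835 bases before Trem3 (48554788 to 48565876, plus strand). On chromosome 7 are Tarm1 (3533019 to 3551140) and Pirb (3714408 to 3723416), both on the minus strand. Pilra is on chromosome 5 (137820214 to 137834543, minus strand) and Lilrb4a on chromosome 10 (51367027 to 51372707, plus strand).

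The 150 bases before the start of the canonical transcript were read for each member and searched on both strands for 3 patterns. GAGGAA is a core of sites of PU.1, the lineage factor of myeloid cells, TTGCNNAA is a pattern of C/EBP factors, and the third is a core of NF-κB sites. The windows of 4 members are shown because they belong to the 3 genes that passed the test below and to the lectin with matches to the PU.1 and C/EBP patterns. They run 5′ to 3′ on the strand of the gene, up to the base before its start, with the PU.1 core in capitals. They are Clec4a2 at chr6:123100123-123100272 (plus strand, at an internal start of the gene), Lilrb4a at chr10:51366877-51367026 (plus strand), Pirb at chr7:3723417-3723566 (minus strand) and Clec4e at chr6:123266830-123266979 (minus strand).
Clec4a2: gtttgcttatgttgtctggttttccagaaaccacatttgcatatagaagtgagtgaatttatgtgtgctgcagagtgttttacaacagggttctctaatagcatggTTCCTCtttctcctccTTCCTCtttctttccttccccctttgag
Lilrb4a: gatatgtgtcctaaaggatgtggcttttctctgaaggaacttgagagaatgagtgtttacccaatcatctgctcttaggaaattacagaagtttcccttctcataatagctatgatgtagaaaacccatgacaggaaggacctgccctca
Pirb: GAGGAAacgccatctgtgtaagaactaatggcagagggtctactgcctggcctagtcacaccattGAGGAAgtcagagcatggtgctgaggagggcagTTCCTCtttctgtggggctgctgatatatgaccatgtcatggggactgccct
Clec4e: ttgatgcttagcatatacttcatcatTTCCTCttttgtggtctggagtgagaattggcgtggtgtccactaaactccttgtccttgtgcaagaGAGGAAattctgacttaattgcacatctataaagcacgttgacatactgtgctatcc

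The PU.1 core stood in the windows of 5 of the 10 members, with 3 matches in Pirb, 2 each in Clec4a2 and Clec4e and 1 each in Clec7a and Trem3. It stood in 14.21% of the windows of all 21770 protein-coding genes with a full window. The C/EBP letters stood in 2 members, Clec4e and Pilra, and in 5.08% of all windows. In Clec4e 59 bases lay between them and the start and 51 between the nearest PU.1 core and the start, and the matches did not overlap. The NF-κB core stood in 1 of 10 members, Pirb, with 1 base between it and the start, and in 12.93% of all windows. Lilrb4a, Clec4d, Trem1 and Tarm1 held none of the 3. Letters in a window of this size describe the sequence and do not locate a bound site.

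Depth and composition differed between the groups in ways that bear on every comparison below. The libraries held 5527108 to 13924361 gene counts, and each late library held more than each early library. The hemoglobin genes took 38.3 to 64.1% of gene counts in early, 14.9 to 29.3% in late and 31.6 to 61.7% in untreated libraries. The 18S gene Rn18s-rs5 was at 313 to 766 CPM (counts scaled to the total of a library) in untreated 2, late 2 and late 3, and at 13402 CPM or more in the remaining 12. Levels are given below as CPM after TMM scaling over the 15 libraries, which rests on the assumption that most genes do not differ. In bulk blood, fewer cells of a type and less RNA per cell cannot be told apart.

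Per kilobase of exon, Pirb, Clec4d and Clec7a stood highest and Clec4a2 and Tarm1 lowest in each group. In late libraries the levels were 89.1 ± 20.2 CPM per kb (SD, n = 5) for Pirb, 85.6 ± 33.0 for Clec4d, 62.2 ± 19.0 for Clec7a and 53.6 ± 13.6 for Lilrb4a. A group of 4 followed at 28.9 ± 8.60 for Pilra, 27.5 ± 9.83 for Trem3, 23.0 ± 8.11 for Trem1 and 22.4 ± 6.90 for Clec4e, and then came Clec4a2 at 9.77 ± 1.79 and Tarm1 at 8.15 ± 3.45. Of the neighbors in this order, Lilrb4a and Pilra, and Clec4e and Clec4a2, differed by more than the larger of their 2 SDs, and the other neighbors did not. Clec4d led in untreated libraries at 76.4 ± 26.9 CPM per kb, ahead of Pirb at 61.6 ± 13.9. In early libraries Clec4d stood at 41.7 ± 19.8, behind Pirb at 48.6 ± 15.9 and Clec7a at 45.9 ± 13.6, none of these neighbors differing beyond their SDs. The raw counts behind the levels ran from 31 for Tarm1 in an early library to 9980 for Pirb in a late library.

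In late against early libraries, the estimate was higher for 10 of 10 members and 3 passed the test, all of them inhibitory: Clec4a2, Lilrb4a and Pirb. No activating member passed (0 of 6). Of all 13315 genes tested, 2.5% passed in the higher direction. The fold changes were of like size in both classes, with a median log2 fold change of 0.95 over the 6 activating and 0.93 over the 4 inhibitory members, against 0.014 over all genes. The standard errors were larger for the activating members, with a median of 0.34 against 0.24. At an unadjusted p under 0.05, 5 of 6 activating and 4 of 4 inhibitory members were higher, against 14.4% of all genes. Whether the classes differed in their change was not tested.

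Clec4a2, the ITIM lectin, measured 27.9, 23.6, 27.2, 37.5 and 26.8 CPM in late libraries 1 to 5. In early libraries 1 to 5 it measured 11.97, 9.77, 18.2, 14.1 and 17.02 CPM, so that every late library stood above every early library. The means were 28.6 ± 5.25 and 14.2 ± 3.48 CPM (SD, n = 5 each), 2.04-fold apart (log2 fold change 1.03, SE 0.18, edgeR, quasi-likelihood, Benjamini-Hochberg adjusted over all genes tested, adjusted p = 0.0126). Clec4a2 passed the test with any of the 10 libraries left out, at adjusted p values from 0.00821 to 0.0394. In all, 2 of 10 members had groups that did not overlap, Clec4a2 and Lilrb4a, against 2.98% of all genes in that direction.

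Lilrb4a, the gp49B receptor, measured 286, 216, 326, 374 and 206 CPM in late libraries 1 to 5. The early libraries held 119, 95.2, 195, 123 and 193 CPM. Here too the groups did not overlap, though late 5 and early 3 were close. The means were 281 ± 71.6 and 145 ± 45.9 CPM (SD, n = 5), 1.96-fold apart (log2 fold change 0.97, SE 0.24, edgeR adjusted p = 0.0392). The call was lost without early 1 (adjusted p = 0.0909), early 2 (0.0767), early 4 (0.104), late 1 (0.0720), late 3 (0.0914) or late 4 (0.108). Lilrb4a shares 47.6% of its 50-base stretches with other genes, 33.1% with the overlapping gene model Gm49339, which had a total count of 0 over the 15 libraries, and 25.8% with its neighbor Lilrb4b, so reads may have been split between them or not counted.

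Pirb, the inhibitory receptor for MHC class I, measured 426, 313, 437, 539 and 325 CPM in late libraries 1 to 5. The early libraries held 191, 141, 321, 185 and 275 CPM. Early 3, at 321 CPM, stood above late 2 at 313 CPM, the only crossing of the groups. The means were 408 ± 92.5 and 223 ± 73.1 CPM (SD, n = 5), 1.85-fold apart (log2 fold change 0.89, SE 0.24, edgeR adjusted p = 0.0498). The adjusted p lay just inside the threshold, and only without early 3 (0.0162) or late 2 (0.0424) did Pirb pass again. Leaving out early 1, 2, 4 or 5 gave 0.111, 0.0936, 0.126 and 0.0514, and leaving out late 1, 3, 4 or 5 gave 0.0912, 0.111, 0.134 and 0.0644. Of its 50-base stretches, 35.8% also occur in other genes, mostly the activating partners Pira12 and Pira2.

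Pilra, the fourth inhibitory member, measured 84.0, 65.5, 107, 126 and 64.5 CPM in late and 38.0, 37.4, 75.8, 31.8 and 70.1 CPM in early libraries 1 to 5. Late 2 and late 5 lay below early 3 and early 5. The means were 89.3 ± 26.6 and 50.6 ± 20.6 CPM (SD, n = 5), with a log2 fold change of 0.83 (SE 0.27) that did not pass the test (edgeR adjusted p = 0.0926) and did without early 3 (adjusted p = 0.0285).

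Among the activating members, Tarm1 had the largest fold change and came nearest to the threshold. It measured 41.9, 15.8, 25.7, 51.8 and 30.3 CPM in late libraries 1 to 5. In early libraries it measured 9.55, 5.13, 20.4, 12.99 and 18.1 CPM. Of the 5 late libraries, 4 stood above all early ones and late 2 lay within their range. The means of 33.1 ± 14.03 and 13.2 ± 6.21 CPM (SD, n = 5) were 2.52-fold apart (log2 fold change 1.33, SE 0.36, edgeR adjusted p = 0.0537). Without late 2 its adjusted p was 0.0323 and without early 3 it was 0.0233. The early levels rest on 31 to 149 counts per library.

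Clec4d (MCL) measured 112, 87.9, 167, 216 and 105 CPM in late and 57.2, 38.1, 104, 38.2 and 96.7 CPM in early libraries 1 to 5. Its neighbor Clec4e (Mincle), whose product forms a complex with MCL, measured 113, 74.7, 109, 166 and 92.2 CPM in late and 47.6, 22.03, 99.1, 40.4 and 79.9 CPM in early libraries. In both genes early 3 and early 5 reached into the late range and the other 3 early libraries did not. The log2 fold changes were 1.04 (SE 0.33, edgeR adjusted p = 0.0817) for Clec4d and 0.95 (SE 0.35, adjusted p = 0.120) for Clec4e, and without early 3 the adjusted p values were 0.0288 and 0.0299. The log2 ratio of Clec4d to Clec4e was 0.26 ± 0.33 (SD, n = 5) in early and 0.28 ± 0.23 in late libraries, a difference within the spread of either group. Neither gene shares a 50-base stretch with another gene.

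Trem1 measured 69.9, 35.9, 75.5, 103 and 61.3 CPM in late and 28.0, 17.2, 61.3, 22.4 and 48.2 CPM in early libraries 1 to 5. Trem3, which follows it on the chromosome, measured 24.96, 19.1, 32.4, 44.1 and 21.3 CPM in late and 14.1, 8.94, 26, 15.2 and 20.3 CPM in early libraries. In Trem1, 4 of 5 late libraries stood above all early ones, and in Trem3 2 of 5 did. Late 5 was nearly level with early 3 in Trem1 (61.33 against 61.31 CPM). The log2 fold changes were 0.96 (SE 0.34, edgeR adjusted p = 0.112) for Trem1 and 0.75 (SE 0.28, adjusted p = 0.131) for Trem3, and without early 3 the adjusted p values were 0.0275 and 0.0378. In Trem1, 27.4% of exon bases face a gene model on the opposite strand, and how the counting used strand is not given in the sources used here.

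Clec7a (Dectin-1) had the smallest estimate of the 10. It measured 129.8, 139, 204, 231 and 117 CPM in late and 96.2, 78.8, 146, 117 and 167 CPM in early libraries 1 to 5. The ranges overlapped widely, with 2 of 5 late libraries above all early ones. The log2 fold change of 0.46 (SE 0.24) did not pass (edgeR adjusted p = 0.276), and it was the only member with an unadjusted p over 0.05.

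**Figure D1:**
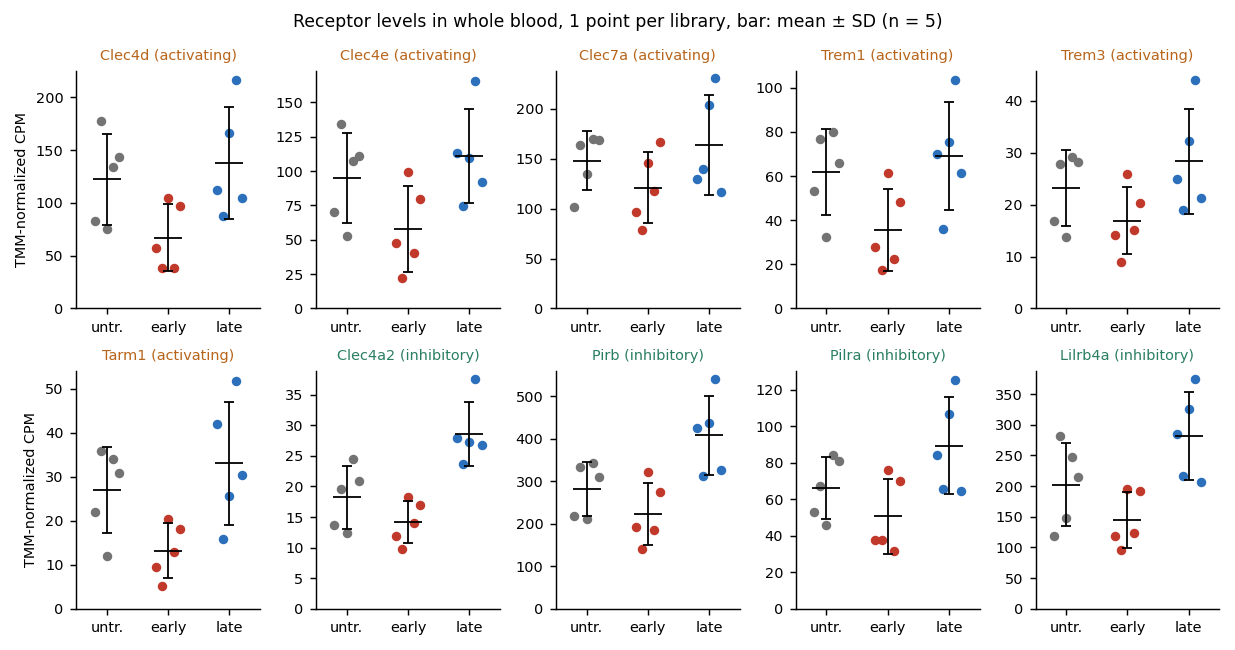
TMM-normalized CPM (linear axis from 0, scaled per gene) of the 10 receptors in each of the 15 libraries, by group, with the mean and SD of 5 libraries as a bar. Late and early points do not overlap in Clec4a2 and Lilrb4a, cross at 1 pair of libraries in Pirb and overlap in the other 7.

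The same libraries were high or low across the members. Late 4 was the highest late library in 10 of 10 members and late 2 the lowest in 7. Early 3 was the highest early library in 9 of 10 members and early 2 the lowest in 9. The mean log2 CPM of 15 neutrophil markers followed the same libraries: it was 7.76 in late 4 and 6.31 in late 2, the extremes of the late group, and 7.16 in early 3 and 5.49 in early 2, the extremes of the early group. In untreated libraries the lowest neutrophil score, 5.90 in untreated 3, fell on the library that was lowest in 8 members.

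Of the neutrophil markers, 13 of 15 were higher in late than in early libraries and 1 passed the test. Their median log2 fold change was 1.11, above that of the activating (0.95) and the inhibitory members (0.93). The most abundant, S100a9 and S100a8, had means of 3489 and 2356 CPM in late against 1688 and 1026 CPM in early libraries (log2 fold changes 1.06 and 1.21, edgeR adjusted p = 0.133 and 0.0865). The summed level of the 15 ranged from 6243 to 16807 CPM in late and from 2610 to 8249 CPM in early libraries. Of 14 monocyte markers, 11 were higher and 3 passed, with summed levels of 4002 to 5510 CPM in late and 1893 to 4845 CPM in early libraries. Their most abundant genes, Lyz2 and F13a1, had log2 fold changes of 0.67 and 0.60 (adjusted p = 0.186 and 0.204). No marker of either list was at 0 in all libraries.

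Markers of the other cells of blood were mostly lower in late than in early libraries. Of the erythroid markers, 10 of 10 tested were lower (median -2.28 on the log2 scale), among which 5 passed (among them Hbb-bt, Alas2, Slc4a1 and Epb42, named, as are Lef1 and Flt3, after their values were seen). The most abundant, Hbb-bs at a mean of 72456 against 381231 CPM and Hba-a1 at 56235 against 189126 CPM, did not pass (edgeR adjusted p = 0.143 and 0.154). Of the T cell markers, 10 of 10 were lower and 1 passed (Lef1, at -0.58), while the most abundant, Tcf7 at 99.9 against 119.7 CPM and Trbc2 at 47.9 against 62.4 CPM, did not (edgeR adjusted p = 0.453 and 0.266). B cell markers (8 of 8, with Ighm and Ighd), NK cell markers (6 of 6, with Gzma and Prf1) and platelet markers (8 of 8, with Ppbp and Pf4) were lower with 0 called, at medians of -0.32, -0.20 and -0.44. Of 8 dendritic cell markers 4 were higher and 1 passed (Flt3, at a log2 fold change of 0.94), while the most abundant, Itgax at 0.34 and Bst2 at -0.15, did not. Of 4 eosinophil and basophil markers, led by Gata2 and Siglecf, 1 was higher and 0 passed, and of 3 skin and sebaceous gland markers, led by Scd3 and Elovl3, 3 were higher and 0 passed. Their part in the receptor values was not tested.

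With the neutrophil score as a term in the fit, the log2 fold changes of late against early fell to 0.06 to 0.38 in the activating and 0.24 to 0.66 in the inhibitory members, and no gene of the 13315 passed. The largest was that of Clec4a2, at 0.66 (SE 0.15, unadjusted p = 8.59e-04, adjusted p = 0.103). With the hemoglobin share as a term, the values were 0.65 to 1.82, with SEs of 0.36 to 0.67, and again no gene passed. The hemoglobin shares of the groups did not overlap, so share and group cannot be told apart. When the 3 libraries poor in 18S sequence were left out (leaving 3 late and 5 early), the log2 fold changes were 0.39 to 1.64, no member passed (Clec4a2 adjusted p = 0.0509, Tarm1 0.0543) and 4 genes passed in all.

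**Figure D2:**
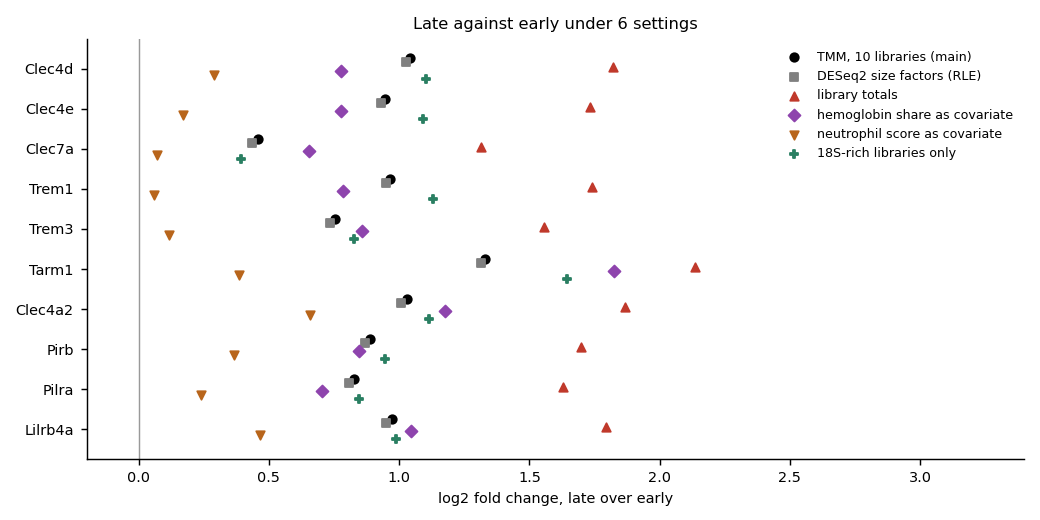
Log2 fold change of each receptor in late over early libraries under 6 settings of the edgeR fit, 1 marker shape per setting. Values under library totals lie to the right of all others, and values with the neutrophil score as a term lie nearest to 0 in each of the 10 genes.

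Scaled by library totals in place of TMM, all 10 members passed, at log2 fold changes of 1.31 to 2.13, but the median of all genes then moved to 0.86 and 8923 of 13315 genes (67.0%) passed in the higher direction. Relative to that median the members stood 0.45 to 1.27 higher. By DESeq2's Wald test 6 members passed, Clec4d and Tarm1 among the activating and all 4 inhibitory members, where 5.79% of all genes passed in the higher direction. Tarm1 also passed with at least 10 counts required in every library (edgeR adjusted p = 0.0489), with 1 fit over all 15 libraries (0.0461) and under the replicate block (0.0376), so that the called members were then not all inhibitory. With DESeq2 size factors in the edgeR fit, Pirb did not pass (adjusted p = 0.0586).

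In late against untreated libraries, the estimate was again higher for 10 of 10 members, and none passed the test. Of all 13547 genes tested, 0.989% passed in the higher and 2.01% in the lower direction. In the fit of both full groups, the estimates were larger for the inhibitory members (log2 fold changes of 0.42 to 0.62) than for the activating members (0.15 to 0.25). At an unadjusted p under 0.05 stood 2 of 4 inhibitory and 0 of 6 activating members, against 8.69% of all genes. The groups overlapped in every member (0 of 10 without overlap, against 2.5% of all genes). By DESeq2's Wald test 1 member passed, Clec4a2 (adjusted p = 0.0463), beside 2.04% of all genes.

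Clec4a2 measured 13.7, 19.6, 12.4, 24.5 and 21.0 CPM in untreated libraries 1 to 5, with a mean of 18.2 ± 5.10 (SD, n = 5). All late libraries but late 2 stood above the highest of these (log2 fold change 0.62, SE 0.18, edgeR adjusted p = 0.1002). Pirb measured 218, 333, 210.3, 342 and 309 CPM, and 3 of 5 late libraries stood above these (log2 fold change 0.53, SE 0.19, adjusted p = 0.186). Lilrb4a measured 119, 281, 148, 248 and 215 CPM (0.47, SE 0.24, adjusted p = 0.356) and Pilra 53.1, 67.4, 45.7, 84.5 and 80.8 CPM (0.42, SE 0.22, adjusted p = 0.359). With the neutrophil score as a term, Clec4a2 passed at a log2 fold change of 0.60 (SE 0.13, edgeR adjusted p = 0.0401), beside 1.14% of all genes. It was the only member to do so, while Pirb was at 0.48 (adjusted p = 0.108).

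For the activating members, the estimates of late against untreated were small beside their errors. Clec4d measured 82.4, 177, 75.1, 134 and 144 CPM in untreated libraries 1 to 5, and Clec4e 69.9, 135, 52.9, 107 and 111 CPM. Clec7a measured 102, 164, 135, 169.7 and 169 CPM and Trem1 53.1, 76.9, 32.5, 80.1 and 66.1 CPM. In each of these genes at most 2 late libraries stood above the untreated range. Trem3 measured 16.9, 27.8, 13.8, 29.2 and 28.2 CPM and Tarm1 22.1, 36.0, 12.1, 34.0 and 31.0 CPM. The log2 fold changes of late against untreated were 0.15 for Clec4d (SE 0.28), 0.21 for Clec4e (SE 0.25), 0.15 for Clec7a (SE 0.21), 0.15 for Trem1 (SE 0.27), 0.25 for Trem3 (SE 0.25) and 0.25 for Tarm1 (SE 0.32). Each of these estimates was about the size of its error or below it, with edgeR adjusted p values of 0.688 to 0.853. Without late 4 the estimates of Clec4d, Clec7a and Trem1 were -0.081, -0.022 and -0.051. With the hemoglobin share as a term 5 of the 6 were negative, at -0.35 to -0.021 with SEs of 0.36 to 0.45. The hemoglobin shares of late and untreated libraries did not overlap either, so share and group cannot be told apart. In libraries rich in 18S sequence (3 late, 4 untreated) the activating estimates ran from 0.12 (Clec7a) to 0.70 (Tarm1, SE 0.30). The inhibitory estimates there ran from 0.44 (Pilra) to 0.74 (Clec4a2), so the ranges of the classes overlapped, and no gene passed.

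In early against untreated libraries, the estimate was lower for 10 of 10 members and none passed (0% of all 12151 genes passed in the lower direction, and none in the higher, by edgeR or by DESeq2). At an unadjusted p under 0.05, 283 of all genes (2.33%) were lower and 256 higher by edgeR, and 301 and 217 by DESeq2. Of the members 3 were lower at that level, all activating: Tarm1 (log2 fold change -1.06, SE 0.35), Clec4d (-0.88, SE 0.33) and Trem1 (-0.80, SE 0.34), each at an edgeR adjusted p of 0.938. The activating members ran from -1.06 to -0.29 and the inhibitory members from -0.49 to -0.35. In no member did the groups fail to overlap, against 0.23% of all genes. The neutrophil markers were lower in 15 of 15, and with the neutrophil score as a term the members lay between -0.34 and 0.08.

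**Figure D3:**
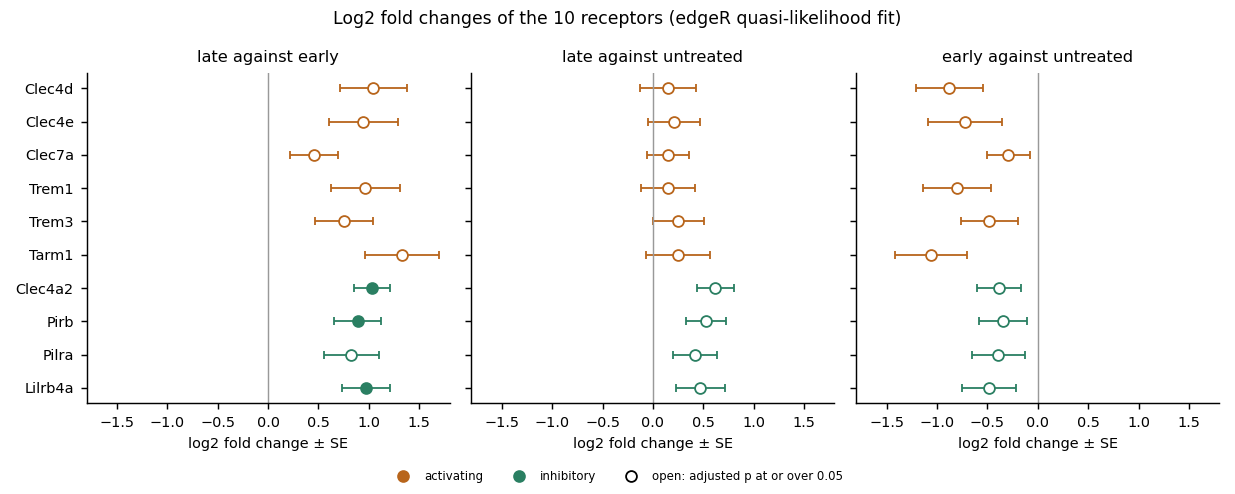
Log2 fold change with its standard error for each receptor in the 3 comparisons, activating members in orange and inhibitory members in green, filled where the adjusted p was under 0.05. The filled points are Clec4a2, Pirb and Lilrb4a in late against early. All late-against-early points lie right of 0 and all early-against-untreated points left of it.

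The 2 classes were then set side by side within each library, as the mean log2 CPM of the 6 activating minus that of the 4 inhibitory members. The difference serves to compare libraries with one another, and scaling between libraries nearly cancels in it. It was not corrected for exon length, which ran from 1032 to 4965 bases in activating and from 2928 to 5252 in inhibitory members. Its sign therefore does not show which class had more transcripts. In untreated libraries 1 to 5 it was -0.47, -0.37, -0.77, -0.60 and -0.49. In early libraries it was -0.84, -1.27, -0.67, -0.89 and -0.74, and in late libraries -0.89, -1.12, -0.86, -0.65 and -0.80. The activating members stood lower relative to the inhibitory ones in most treated libraries than in untreated ones: 4 of 5 late and 3 of 5 early libraries lay below all untreated libraries.

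The group means of this difference were -0.54 ± 0.16 in untreated, -0.88 ± 0.23 in early and -0.86 ± 0.17 in late libraries (SD, n = 5 each). Late and early differed by 0.019, within the spread of either group. Late lay 0.32 and early 0.34 below untreated on the log2 scale. The mean log2 CPM of the activating members was 5.93 ± 0.49 in untreated, 5.18 ± 0.66 in early and 6.14 ± 0.47 in late libraries, and that of the inhibitory members 6.47 ± 0.40, 6.06 ± 0.45 and 7.002 ± 0.33. Beside untreated libraries, the early group thus lay further down in its activating mean and the late group further up in its inhibitory mean. In the inhibitory mean the late libraries stood above all early libraries (5 of 5), and in the activating mean 3 of 5 did. No test was run on these sums over chosen genes.

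In the balance of neutrophil and monocyte markers the group mean was also highest in untreated libraries. Late stood above early in this balance, while in the receptor difference late and early lay within the spread of either group. The neutrophil minus the monocyte score (log2) was 1.33 ± 0.70 in untreated, 0.34 ± 0.86 in early and 0.91 ± 0.37 in late libraries (SD, n = 5). Early lay below late by less than the early SD, and late lay below untreated by less than the untreated SD. The groups overlapped in every comparison. The neutrophil score was 7.10 ± 0.71 in untreated, 6.23 ± 0.72 in early and 7.23 ± 0.56 in late libraries. The monocyte score was 5.77 ± 0.26, 5.89 ± 0.47 and 6.32 ± 0.22 in the same order. Their part in the receptor balance was not tested.

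**Figure D4:**
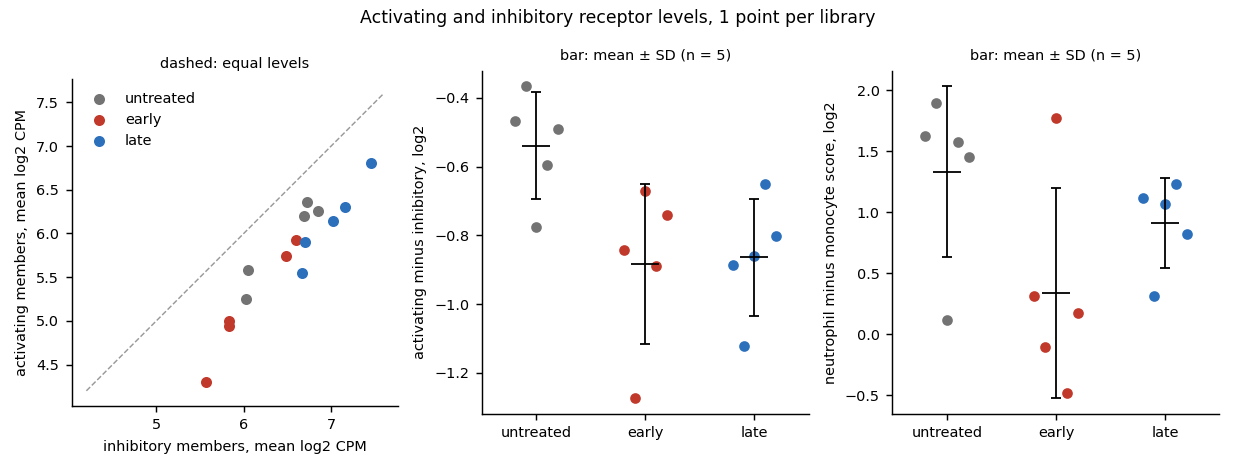
Left, mean log2 CPM of the 6 activating against the 4 inhibitory receptors, 1 point per library, with a dashed line of equal CPM. The CPM are not corrected for exon length, so the side of the line does not rank the classes by transcript number. Middle and right, their difference and the neutrophil minus monocyte marker score per library with the mean and SD of each group. All 15 libraries lie below the dashed line, and 4 of 5 late libraries lie below all untreated libraries in the difference.

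Beyond the receptors themselves, their adapters were higher in late than in early libraries but did not pass. Tyrobp (DAP12) had 383 ± 116 CPM in late and 216 ± 67.2 CPM in early libraries (SD, n = 5, log2 fold change 0.84, edgeR adjusted p = 0.0665) and Fcer1g (FcRγ) 192 ± 38.8 against 117 ± 41.4 CPM (0.73, adjusted p = 0.0832). Of the 3 adapters, 0 passed and 3 had an unadjusted p under 0.05, where 2.5% and 14.4% of all genes were higher. In the list of 16 genes of Syk and Card9 signaling, 11 were higher and 1 passed, Card9, the scaffold that couples these receptors to NF-κB, which rose from 39.8 ± 14.7 to 78.8 ± 16.2 CPM (log2 fold change 1.00, SE 0.23, adjusted p = 0.0331). Syk itself was at 409 ± 52.6 against 327 ± 40.4 CPM (0.35, adjusted p = 0.153). Of 6 Src family kinases and phosphatases that act on ITIMs, 5 were higher and 0 passed, with Ptpn6 (SHP-1) at a log2 fold change of 0.35 (adjusted p = 0.123) and Lyn, the kinase that phosphorylates ITIMs, at 0.31 (adjusted p = 0.345). The medians of these 3 lists were 0.73, 0.33 and 0.33, against 0.014 over all genes.

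Among relatives of the members, calls in late against early were in the higher direction only, while 2.5% of all genes passed in the higher and 2.48% in the lower direction. Of 15 other C-type lectins tested, 10 were higher and 2 passed, Cd209a (7.21 ± 1.64 against 3.02 ± 1.25 CPM, log2 fold change 1.22, adjusted p = 0.0267) and Clec10a (7.06 ± 2.05 against 3.04 ± 1.39 CPM, 1.15, adjusted p = 0.0475), both lectins of dendritic cells and macrophages. Of 5 other TREM genes, 3 were higher and 1 passed, Trem2 (8.58 ± 1.13 against 4.42 ± 1.54 CPM, 0.92, adjusted p = 0.0339), while Treml2, the most abundant, was at -0.11 (adjusted p = 0.681). Of 27 other paired immunoglobulin-like receptors, 22 were higher and 4 passed: the activating Cd300c2 (0.77, adjusted p = 0.0229), the inhibitory Sirpa (0.86, adjusted p = 0.0274), which binds CD47, Pira13 (0.79, adjusted p = 0.0376), an activating partner of Pirb, and the inhibitory Cd200r1 (0.79, adjusted p = 0.0382). The list medians were 0.37, 0.17 and 0.73. Late against untreated, which uses the same late libraries, gave 4, 1 and 3 calls in these lists, all higher, beside 0.989% of all genes. Among them were Cd209a, Clec10a, Trem2 and Cd300c2 (log2 fold changes 1.60, 1.39, 0.98 and 0.69, edgeR adjusted p = 0.0242, 0.0412, 0.0242 and 0.0346). The others, named after their values were seen, were Clec4a1 (0.82, adjusted p = 0.0312), Clec4a3 (0.84, 0.0478), Sirpb1a (0.67, 0.0250) and Sirpb1c (0.74, 0.0242). Sirpa, Pira13 and Cd200r1 did not pass there (adjusted p = 0.0560, 0.229 and 0.617).

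Of 11 ligand genes tested, 4 were higher, 7 lower and 1 passed, Fn1 (fibronectin), which rose from 65.6 ± 17.7 to 203 ± 74.3 CPM (log2 fold change 1.64, SE 0.25, adjusted p = 0.0126) and is also on the monocyte marker list. B2m, the light chain of MHC class I, was at -0.11 (adjusted p = 0.785). Of 7 cytokine and target genes tested, 5 were higher and 0 passed, beside 2.5% of all genes that passed higher. Il1b, the interleukin produced downstream of Dectin-1 and Mincle, was at 306 ± 129 against 184 ± 76.0 CPM (0.75, adjusted p = 0.190) and Nlrp3, the inflammasome sensor, at 56.5 ± 15.98 against 34.4 ± 13.4 CPM (0.72, adjusted p = 0.120).

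**Figure D5:**
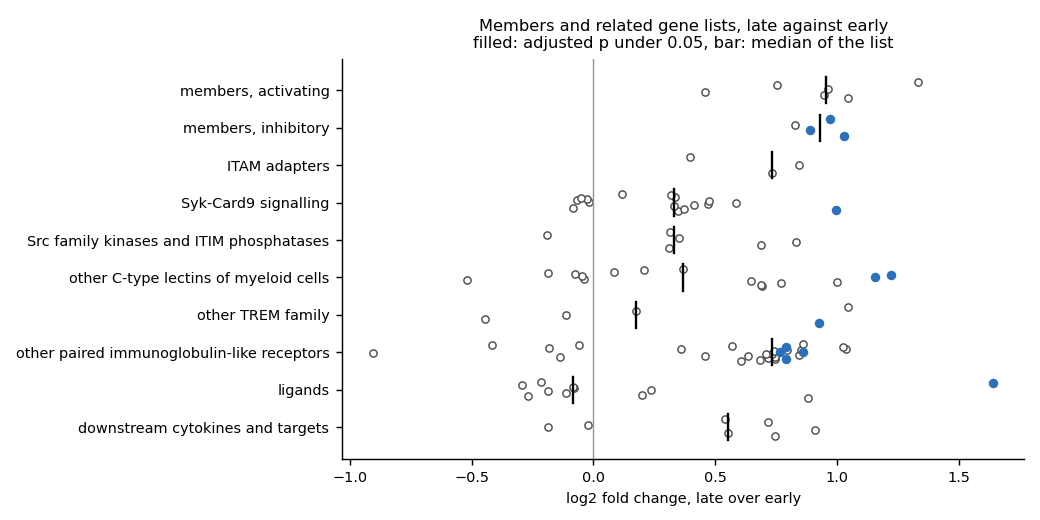
Log2 fold changes of late over early libraries for the members by class and for each related gene list, 1 point per tested gene, filled where the adjusted p was under 0.05, with the median of the list as a bar. Filled points lie right of 0 in every list that has any, and the medians of both member classes exceed those of the 8 lists. The marker lists are not drawn, and the median of the neutrophil markers, 1.11, exceeds those of both member classes.

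Pairs of opposite sign were compared through their log2 ratio per library. Lilrb4a stood below its paralog Lilrb4b, which lacks ITIMs, with a log2 ratio of -0.86 ± 0.13 in untreated, -0.71 ± 0.10 in early and -0.60 ± 0.11 in late libraries (SD, n = 5). Lilrb4b itself had a log2 fold change of 0.86 in late against early (SE 0.26, edgeR adjusted p = 0.0721). Pirb to Pira2 was 4.30 ± 0.37, 4.33 ± 0.08 and 4.56 ± 0.24, and Pilra to its activating partner Pilrb1 1.43 ± 0.19, 1.27 ± 0.29 and 1.42 ± 0.10, in the same order. These ratios are not corrected for exon length, so their sign does not rank the genes by transcript number. The shared sequence of these pairs makes each ratio uncertain. In Lilrb4a, 35.15% of exon bases also overlap another gene model on the same strand.

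Deviations from the group means, over the 15 libraries and 9520 genes with a mean of at least 5 CPM, show which genes varied most like each member, as a description and with the composition of each library shared by all. Clec4d and Clec4e were most like Arg2 (Pearson r = 0.98 and 0.97), which encodes mitochondrial arginase. Clec4d was next most like Tmem154 and Rasgrp4 (both 0.97), and Clec4e like Pirb and Fam217b (both 0.96). Clec7a varied most like Tyrobp, the DAP12 adapter, at 0.96, then Rgs2 (0.96) and Msrb1 (0.95).

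Trem1 was most like Pygl, the glycogen phosphorylase, Fam217b and Lonrf1 (each 0.98), Trem3 like Il36g, Gsr and Fbxl5 (each 0.97), and Tarm1 like Csf2rb, the shared chain of the GM-CSF, IL-3 and IL-5 receptors (0.98), Trem5 and Trem4 (both 0.96). Of the inhibitory members, Pirb was most like Trim30b, the Fc receptor Fcgr3 and Il36g (each 0.98), Lilrb4a like Lilrb4b (0.97), Trim30b (0.97) and Pirb (0.95), Clec4a2 like St3gal4, Prr5l (both 0.96) and Mfsd14b (0.95), and Pilra like Hbp1, Gm43495 and Rara (each 0.96). Between members, the median r was 0.91 over the 15 activating pairs, 0.90 over the 6 inhibitory pairs and 0.89 over the 24 pairs across classes, so members of opposite sign varied together about as closely as members of a class.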

How the data were processed

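Whole-blood libraries of 15 mice, 5 per group, were grouped by the treatment and surgery labels. The deposited values are counts per gene, which the authors made with STAR 2.7.9 and HTSeq 0.13.5 per the labels, without normalization. The labels name mm10 and GRCm39 as builds, and the annotation release is not given in the sources used here. Identifiers were matched to GENCODE vM39 symbols (54749 of 55416). HTSeq rows that name no gene held 75.6 to 88.1% of each file's total and were left out. Gene counts per library gave the depth.

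The 10 members, the classes and the gene lists were chosen with earlier results of these data known. Late, early and untreated libraries were compared in pairs with edgeR 4.0.16 (R 4.3.3): filterByExpr, TMM, quasi-likelihood test, two-sided, Benjamini-Hochberg over all genes tested, threshold 0.05. DESeq2 1.42.0, the tool of the study, was an alternative. Mean CPM values use TMM over 15 libraries, and log2 CPM a prior count of 2. The fit was tested on simulated data. In each related list, up to 6 genes that passed in late against early by smallest p were named, or, where fewer than 2 passed, the most abundant up to 2, in each marker list the 2 most abundant, and for each member the 3 genes most alike. The marker lists of other cells (dendritic, T, B, NK, erythroid, platelet, eosinophil and basophil, skin) served as a check of the tissue. The values of 1 marker are not reported here. Promoter windows came from GRCm39. Nothing in the labels ties mice of different groups by replicate number. P-values measure the spread between mice of 1 experiment. Alternatives were another scaling, tool, low-count filter or prior count, 1 fit over all 15 libraries, a replicate block, covariates (hemoglobin share, neutrophil score), libraries rich in 18S sequence (at least 5000 CPM) and leaving out each library.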

Additional observations from a re-analysis of the deposited data

Results flagged for a closer look

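Of 48 sets of 5 libraries checked (the CPM of the 10 members, the 2 class means, their difference and the marker scores, each in 3 groups), 1 held a library far from the others. The neutrophil minus monocyte score of untreated 3 was 0.11 against 1.45 to 1.89 in the other 4 untreated libraries, a gap of 0.753 of the range of the group. Such a gap is met by chance in about 5% of sets. Untreated 3 was also the lowest untreated library in 8 of 10 members. Without it, the difference of activating minus inhibitory levels between late and untreated libraries was -0.38 on the log2 scale, against -0.32 with it.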

How the results depend on the processing

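In late against early libraries, 3 members passed the test. The count was 10 by library totals, 6 by DESeq2 and 9 with no low-count filter, where 67.0%, 5.79% and 3.09% of all genes passed higher. It was 4 (with Tarm1) with at least 10 counts in every library or 1 fit over all 15 libraries, beside 3.21% and 2.88%. Under DESeq2 size factors it was 2 (without Pirb), beside 1.51%. It was 0 with the hemoglobin share or the neutrophil score as a term or in libraries rich in 18S sequence alone. With 1 library left out it ran from 1 to 9 (without early 3), and Clec4a2 passed each time, while the share of all genes that passed higher ran from 0.268% (without late 4) to 7.73% (without early 3). In late against untreated libraries 0 members passed. The count was 10 by library totals, where 55.2% of all genes passed higher. Relative to the median of all genes under that scaling the members stood at -0.043 to 0.53. The count was 1 (Clec4a2) by DESeq2, under the replicate block or with the neutrophil score as a term. In these settings 2.04%, 1.7% and 1.14% of all genes passed higher. With any library left out the count was 0. In early against untreated libraries no setting gave a call among the members.

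The estimates of late against early stayed above 0 in all 10 members under every setting run. Estimates of late against untreated turned negative with the hemoglobin share as a term for Clec4d (-0.35), Clec4e (-0.23), Clec7a (-0.061), Trem1 (-0.13) and Trem3 (-0.021). Their SEs were 0.36 to 0.45, and the hemoglobin shares of these groups did not overlap. Some estimates also turned negative with 1 library left out, where Clec4d ran from -0.081 (without late 4) to 0.33, Clec7a from -0.022 (without late 4) to 0.23 and Trem1 from -0.051 (without late 4) to 0.30, with -0.013 without untreated 3. In early against untreated, Clec4a2 (0.024), Trem3 (0.070), Pirb (0.058) and Pilra (0.077) turned positive with the neutrophil score as a term. The causes were not tested. The difference of activating minus inhibitory levels moved by less than 1 SD under every setting run, and between late and early its sign varied around 0, from -0.08 to 0.15.

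Under the replicate block 4 members passed in late against early, beside 2.76% of all genes in the higher direction. In late against untreated 1 passed, beside 1.7%, and in early against untreated 0 passed. Same-numbered libraries did not deviate together in every pair (r from -0.17 to 0.46 in late and early, 0.03 to 0.58 in late and untreated, -0.29 to 0.08 in early and untreated). Some libraries correlated best with their own number and others did not. These correlations cannot settle whether the numbers pair the mice, and the labels name no pairing. Counts of all genes that passed in late against early also moved, from 333 higher and 330 lower to 201 and 338 under DESeq2 size factors and 769 and 670 by DESeq2. In late against untreated, 134 genes passed higher, and 0 did without untreated 3, late 1, late 4 or late 5. No early library was poor in 18S sequence, so late and early could not be compared among such libraries.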
